A study of Mus musculus with 4 samples.

Results

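Hnf4a, Nr1h4, Rxra, Esrrg, Esrra, Pax8, Pax2 and Tfcp2l1 are transcription factors that set and maintain the identity of kidney tubule cells. They were chosen by name and not by a rule on their values, but with earlier results of these data known. They make up 8 of the 19609 gene rows of a table of mean RNA levels in kidney nuclei. Single-nucleus RNA-seq, which counts unspliced and spliced transcripts in isolated nuclei, was done on the kidney cortex of 4 male mice of mixed strain. The question was how the tubule responds within 24 hours to DNA damage with and without extra KLF6, a zinc finger transcription factor induced by injury. The 4 conditions held 1 mouse each. The control mouse carried TRE-hKLF6, a human KLF6 transgene that stays silent without its driver, and the hKLF6OE mouse carried TRE-hKLF6 and CAG-rtTA, a doxycycline-dependent activator expressed in all tissues and not only in the tubule. All 4 mice were fed doxycycline at 200 mg/kg of diet. Control_AAI and hKLF6OE_AAI mice of the same genotypes received 1 injection of aristolochic acid I (AAI) at 2 mg/kg, a plant toxin that forms DNA adducts in the proximal tubule, and were studied 24 hours later. Mouse Klf6 is listed in the table and human KLF6 was not analysed here, so the overexpression itself was not checked. A condition and its mouse cannot be told apart, and no test between conditions was run.

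The proximal tubule reabsorbs most of the filtered solutes, and its differentiated state depends on nuclear receptors. HNF4A drives transporter and gluconeogenic genes, FXR (encoded by Nr1h4) senses bile acids, and RXRA is the partner with which FXR, PPARA and the thyroid and vitamin D receptors bind DNA. ERRA and ERRG, encoded by Esrra and Esrrg, are orphan receptors that drive mitochondrial genes together with the coactivators PGC-1A and PGC-1B. PAX2 and PAX8 specify the kidney lineage in the embryo and persist in tubule and collecting duct, and TFCP2L1 patterns the intercalated and principal cells of the collecting duct.

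In the GENCODE annotation of GRCm38, Hnf4a spans chr2:163506808-163572910, Nr1h4 chr10:89454234-89533585, Rxra chr2:27676440-27762957 and Pax8 chr2:24420560-24475599. Esrrg spans chr1:187608791-188214885, Esrra chr19:6910977-6921813, Pax2 chr19:44756045-44837871 and Tfcp2l1 chr1:118627945-118685168. Their genomic spans differed widely. Esrrg covers 606.1 kb and belongs to the genes over 100 kb, Esrra covers 10.8 kb and belongs to those under 30 kb, and the other 6 cover 55.0 to 86.5 kb. Counts over whole transcripts rise with length, so levels are compared below between clusters and mice and not between genes.

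RefSeq lists 15 start sites for the 8 genes, and windows of 250 bases before to 50 after each start (GRCm38.p6) were searched on both strands for 4 short elements. An ERR element (TCAAGGTCA) and an HNF4 element (CAAAGTCCA) were in 0 of the 15 windows, beside 0.423% and 0.475% of all 32851 windows, which says only that these letters are not there. The shorter nuclear receptor core AGGTCA, which is also the end of the ERR element, was in 2 of 15 (16.3% of all) and the GC box GGGCGG in 8 of 15 (35.7%). The 4 windows below are shown since Hnf4a and Nr1h4 have like patterns across the clusters but hold different elements, while the paralogs Esrrg and Esrra, which differed unequally in injured nuclei, both hold GC boxes. Hnf4a has 2 listed starts and Esrrg 4, and the data do not show which were used. The Hnf4a window at chr2:163546905-163547204 holds none of the elements. The Esrrg windows at chr1:187608756-187609055 and chr1:187651508-187651807 hold no GC box. The likeness and the contrast thus hold only for the windows printed. The Nr1h4 window lies inside the gene span given above and not at its 5′ end. Each window runs 5′ to 3′ on the strand of its gene, and capitals mark the elements on either strand. They are descriptions of the letters and not binding sites.

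Hnf4a, chr2:163506607-163506906, + strand, 1 GC box: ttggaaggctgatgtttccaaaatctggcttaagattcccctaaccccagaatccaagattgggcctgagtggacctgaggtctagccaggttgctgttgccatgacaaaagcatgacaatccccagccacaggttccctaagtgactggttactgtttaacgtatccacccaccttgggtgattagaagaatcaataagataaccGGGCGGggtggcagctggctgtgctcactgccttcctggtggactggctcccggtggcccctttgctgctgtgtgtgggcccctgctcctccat

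Nr1h4, chr10:89506609-89506908, - strand, 1 nuclear receptor core: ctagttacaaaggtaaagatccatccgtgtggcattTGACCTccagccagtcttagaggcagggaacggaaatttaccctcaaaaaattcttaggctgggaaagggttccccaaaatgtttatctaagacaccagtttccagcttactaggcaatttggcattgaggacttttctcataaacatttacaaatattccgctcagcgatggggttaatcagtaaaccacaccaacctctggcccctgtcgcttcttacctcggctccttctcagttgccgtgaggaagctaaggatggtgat

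Esrrg, chr1:187651991-187652290, + strand, 2 GC boxes: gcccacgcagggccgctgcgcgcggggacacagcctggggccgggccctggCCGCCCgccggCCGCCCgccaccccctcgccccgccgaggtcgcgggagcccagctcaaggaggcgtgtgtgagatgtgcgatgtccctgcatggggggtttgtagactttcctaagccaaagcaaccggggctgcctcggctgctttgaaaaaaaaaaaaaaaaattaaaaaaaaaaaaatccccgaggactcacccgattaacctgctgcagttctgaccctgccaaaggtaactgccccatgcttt

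Esrra, chr19:6921759-6922058, - strand, 2 GC boxes: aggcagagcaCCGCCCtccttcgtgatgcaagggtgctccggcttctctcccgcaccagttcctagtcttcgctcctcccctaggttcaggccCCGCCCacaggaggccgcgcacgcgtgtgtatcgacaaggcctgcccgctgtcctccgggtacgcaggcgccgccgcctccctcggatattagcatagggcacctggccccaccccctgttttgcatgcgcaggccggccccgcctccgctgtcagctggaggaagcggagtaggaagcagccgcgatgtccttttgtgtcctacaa

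The table gives a mean for each of 23 clusters of nuclei in each mouse, scaled so that each of the 92 columns sums to 10000. It holds neither the number of nuclei nor the depth, so no interval can be given for a value. The share of genes at 0, which falls as more RNA is sampled, was at most 23.1% in the 5 normal proximal tubule (PT) clusters without AAI and at most 31.3% with AAI. It was 62.6% and 40.8% in InjuredPT-A of the uninjured control and hKLF6OE mice against 22.5% and 22.2% after AAI, and 51.3% and 55.7% against 27.0% and 29.7% in InjuredPT-B, so the injured clusters of the uninjured mice are thin. Cluster names were checked on their markers. The summed level of 7 PT markers was 18.5 to 90.2 in the normal PT clusters and also reached 32.9 to 42.8 in EC-1, 31.2 to 36.4 in DCT_CNT, 18.5 to 22.8 in macrophages and 19.8 to 20.96 in the mesangial cluster MC. In EC-1 the endothelial genes Flt1 and Emcn averaged 3.80 and 2.67 against 22.7 and 18.7 in EC-2, so EC-1 is weakly endothelial. The PT-S1-S2 marker Slc5a12 averaged 17.3 in EC-1 against 5.29 in EC-2, so EC-1 also holds many PT transcripts. Of the PT-S3 markers, Cyp7b1 averaged 0.356 in PT-S3-1 against 41.2 in PT-S3-2 and 8.40 in PT-S3-3, so PT-S3-1 carries its segment's markers only in part.

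Across the clusters the 8 factors fell into different territories. Hnf4a and Nr1h4 were highest in the PT clusters. Esrrg was highest in intercalated cells and also high in normal PT, ascending limb and distal clusters, but not in the descending limb. Pax8 and Pax2 peaked in the descending limb and the principal cells, and Tfcp2l1 peaked in intercalated cells. Esrra averaged 0.949 to 2.77 in the tubule clusters, and Rxra was barely detected. The spread below is the SD over the 4 mice, which differ in genotype and AAI, so it holds those differences too.

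**Figure D1:**
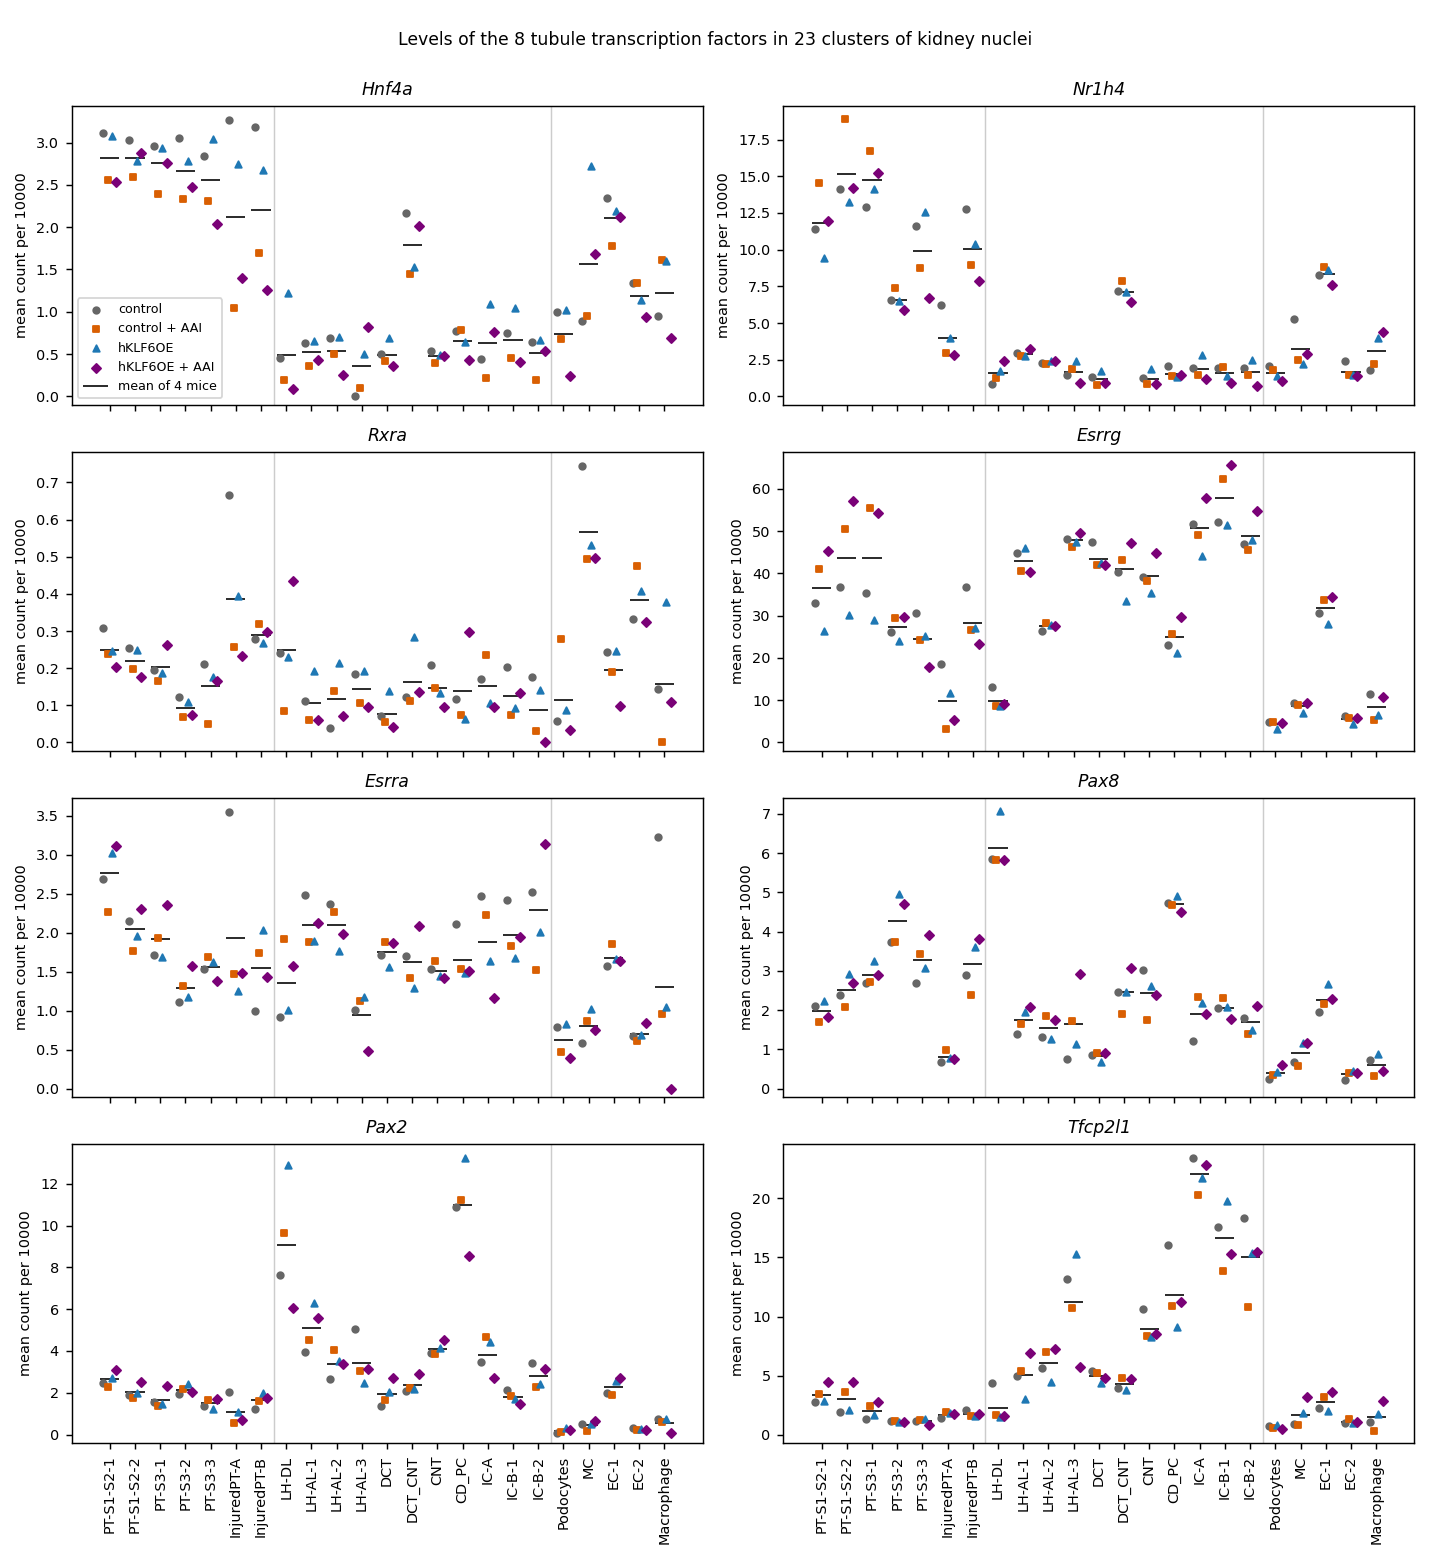
Mean count per 10000 (vertical axes, linear and of different range) of each factor in 23 clusters. PT clusters are on the left, then other tubule clusters and, behind the second vertical line, clusters with non-tubule names, among them EC-1 with its PT transcripts. Points are the 4 mice and black bars their mean. Hnf4a averages 2.55 to 2.82 in the normal PT clusters, Esrrg 57.9 in IC-B-1, Pax8 6.14 in LH-DL, and Tfcp2l1 22.1 in IC-A.

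Hnf4a averaged 2.82 ± 0.321 (SD, n = 4 mice) in PT-S1-S2-1, 2.82 ± 0.184 in PT-S1-S2-2, 2.76 ± 0.260 in PT-S3-1, 2.66 ± 0.323 in PT-S3-2 and 2.55 ± 0.465 in PT-S3-3. It was 0.358 to 0.667 in the loop, distal, connecting and intercalated clusters apart from DCT_CNT, which had 1.79 ± 0.354. EC-1 with 2.11 ± 0.237, MC with 1.56 ± 0.852, macrophages with 1.22 ± 0.465 and EC-2 with 1.19 ± 0.193 also had means above those clusters. EC-1, DCT_CNT, macrophages and MC are the 4 clusters outside the PT with the highest summed PT markers, and the part of those transcripts in the Hnf4a level was not tested. None of the 22 pairs of neighbours in the order of Hnf4a differed beyond the range of the mice. Hnf4aos, a long noncoding RNA antisense to Hnf4a, averaged 8.81, 9.20, 9.02 and 8.28 over the normal PT clusters of the control, control_AAI, hKLF6OE and hKLF6OE_AAI mice. Hnf4a and Hnf4aos have rows of their own. The strand setting of the counting is not given in the sources used here, and counting without strand would mix reads of these overlapping genes.

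Nr1h4, the FXR gene, averaged 15.1 ± 2.55 in PT-S1-S2-2, 14.7 ± 1.62 in PT-S3-1 and 11.8 ± 2.10 in PT-S1-S2-1. The other PT-S3 clusters were lower, with 9.91 ± 2.68 in PT-S3-3 and 6.58 ± 0.614 in PT-S3-2. EC-1 had 8.33 ± 0.531, DCT_CNT 7.12 ± 0.590, MC had 3.23 ± 1.39 and macrophages 3.104 ± 1.27, and the ascending limb cluster LH-AL-1 followed with 2.92 ± 0.217. The range in LH-AL-1 did not overlap that of LH-AL-2, the next in order, and this was the only such pair of 22. The lowest mean was 1.18, in the distal convoluted tubule (DCT).

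Rxra, the common partner of these receptors, reached the minimum of 0.5 used for comparisons in 3 of 92 values. Its highest mean was 0.567 ± 0.120 in MC, and in 21 clusters all 4 mice were below 0.5. No statement on a difference of Rxra between conditions can rest on these levels, and it passed in no comparison over or against the normal PT clusters. In the contrasts of single clusters it was called lower after AAI in InjuredPT-A and MC of the control genotype. Without AAI it was called lower in InjuredPT-A of hKLF6OE than of control. Both InjuredPT-A calls rest on the control column with 62.6% of genes at 0. All these calls are in the counts over 23 clusters below.

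Esrrg was highest in the intercalated clusters, at 57.9 ± 7.21 in IC-B-1, 50.7 ± 5.64 in IC-A and 48.8 ± 4.05 in IC-B-2. LH-AL-3 with 47.9 ± 1.37, PT-S1-S2-2 with 43.7 ± 12.5 and PT-S3-1 with 43.6 ± 13.4 came next. PT-S3-2 and PT-S3-3 were lower, at 27.3 ± 2.79 and 24.5 ± 5.20, and below PT-S3-3 the order broke: its range did not overlap that of LH-DL with 9.84 ± 2.18. Podocytes had the lowest mean, 4.35 ± 0.770. InjuredPT-A, at 9.72 ± 7.004, was the PT cluster with the least Esrrg, and its large SD came from 18.7 and 11.8 without AAI against 3.17 and 5.28 with AAI.

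Esrra, the paralog of Esrrg, averaged 2.77 ± 0.384 in PT-S1-S2-1, 2.29 ± 0.690 in IC-B-2 and 2.10 ± 0.280 in LH-AL-1. Its lowest tubule mean was 0.949 ± 0.318 in LH-AL-3, and podocytes had 0.622 ± 0.220. No neighbouring pair differed beyond the range of the mice. Esrra values of 3.22 and 0 in macrophages of 2 mice come from columns with 49.7% and 56.9% of genes at 0.

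Pax8 was highest in LH-DL, the descending limb, with 5.85, 5.82, 7.07 and 5.81 in the control, control_AAI, hKLF6OE and hKLF6OE_AAI mice. These values lay above all 4 of the next cluster, CD_PC, the principal cells, which had 4.73, 4.69, 4.90 and 4.50. Within the PT, Pax8 averaged 4.28 in PT-S3-2, 3.27 in PT-S3-3, 2.89 in PT-S3-1, 2.51 in PT-S1-S2-2 and 1.97 in PT-S1-S2-1. InjuredPT-A had 0.792 ± 0.125, below every normal PT cluster and near DCT with 0.831. Pax2 was highest in the same 2 clusters in the reverse order, with 10.98 ± 1.93 in CD_PC and 9.05 ± 2.95 in LH-DL, whose ranges overlap. Pax2 averaged 1.49 to 2.64 in the normal PT clusters and 0.172 ± 0.101 in podocytes.

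Tfcp2l1 had 23.5, 20.3, 21.7 and 22.9 in IC-A of the control, control_AAI, hKLF6OE and hKLF6OE_AAI mice. IC-B-1, with 17.6, 13.9, 19.8 and 15.3, lay below it without overlap. IC-B-2 with 15.001 ± 3.13, CD_PC with 11.8 ± 2.98, LH-AL-3 with 11.23 ± 4.10 and CNT with 8.94 ± 1.11 followed, and CNT did not overlap LH-AL-2, the next in order. In the PT it was 3.38 and 3.03 in the PT-S1-S2 clusters and 1.11 to 2.02 in the PT-S3 clusters.

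Across the 23 cluster means, on the scale of log2(value + 1), Hnf4a and Nr1h4 ran together with r = 0.92, Pax8 and Pax2 with r = 0.73, Esrrg and Esrra with r = 0.69, and Esrrg and Tfcp2l1 with r = 0.68. Hnf4a and Tfcp2l1 ran in opposite directions with r = -0.60. The clusters share their libraries and some PT transcripts, so these values only describe the order. Among 2687 genes with a cluster mean of at least 2, the nearest in pattern to Hnf4a was Slc17a1, a phosphate and urate transporter of the apical membrane (r = 0.99), with Akr1c21 and Pdzk1 (both r = 0.98). A1cf, an RNA-editing cofactor, was among the nearest to Nr1h4 (r = 0.97), beside 2 transcripts without a common name. Esrrg was followed by Ablim1 (r = 0.92), the proton pump subunit Atp6v0a4 and Svopl (both r = 0.89), and Tfcp2l1 by Tmem117 (r = 0.94), Wdr72 and the proton pump subunit Atp6v1b1 (both r = 0.92). The nearest to Esrra were Eps8l2 (r = 0.78), Ppargc1b (r = 0.75), which encodes PGC-1B, and Map7 (r = 0.73). Pax8 was nearest to Stxbp6 and Glis3 (both r = 0.90) and Veph1 (r = 0.88), Pax2 to Syne2 (r = 0.90), Carmil1 (r = 0.88) and Mpp7 (r = 0.86), and Rxra, at its low level, to Selenop (r = 0.90) and Eif4g2 (r = 0.87).

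Within the normal PT, the segments differed in 4 of the 7 factors that could be compared. Pax8 was higher in the PT-S3 clusters than in the PT-S1-S2 clusters of both uninjured mice, and Esrra, Pax2 and Tfcp2l1 were lower. A gene counted when its larger value was at least 0.5 and its difference of log2(value + 1) was at least 0.2 in the same direction in both mice, which held for 12.9% of 3913 genes as higher and 14.7% as lower. Pax8 was 3.04 in PT-S3 against 2.25 in PT-S1-S2 of the control mouse (difference 0.31) and 3.76 against 2.57 in the hKLF6OE mouse (0.41). Tfcp2l1 was 1.22 against 2.35 (-0.59) and 1.32 against 2.47 (-0.58). Esrra was 1.45 against 2.42 (-0.48) and 1.496 against 2.49 (-0.48), and Pax2 was 1.63 against 2.17 (-0.27) and 1.71 against 2.35 (-0.31). Both mice thus gave nearly the same segment difference for Tfcp2l1 and Esrra. For Pax2 the single clusters overlapped: PT-S3-2 was above PT-S1-S2-2 in the control mouse (1.95 against 1.88) and the hKLF6OE mouse (2.42 against 1.98). Hnf4a differed by -0.04 and -0.01 between the segments, Esrrg by -0.18 and -0.11, and Nr1h4 by -0.28 and -0.04, where PT-S3 joins the high PT-S3-1 with the lower PT-S3-2. Ppargc1a, which encodes the ERR coactivator PGC-1A, was the coregulator with the lowest difference, -0.64 and -0.71, and Nfib, a nuclear factor I protein, the highest of the other tubule factors reported here at 0.75 and 0.76.

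**Figure D2:**
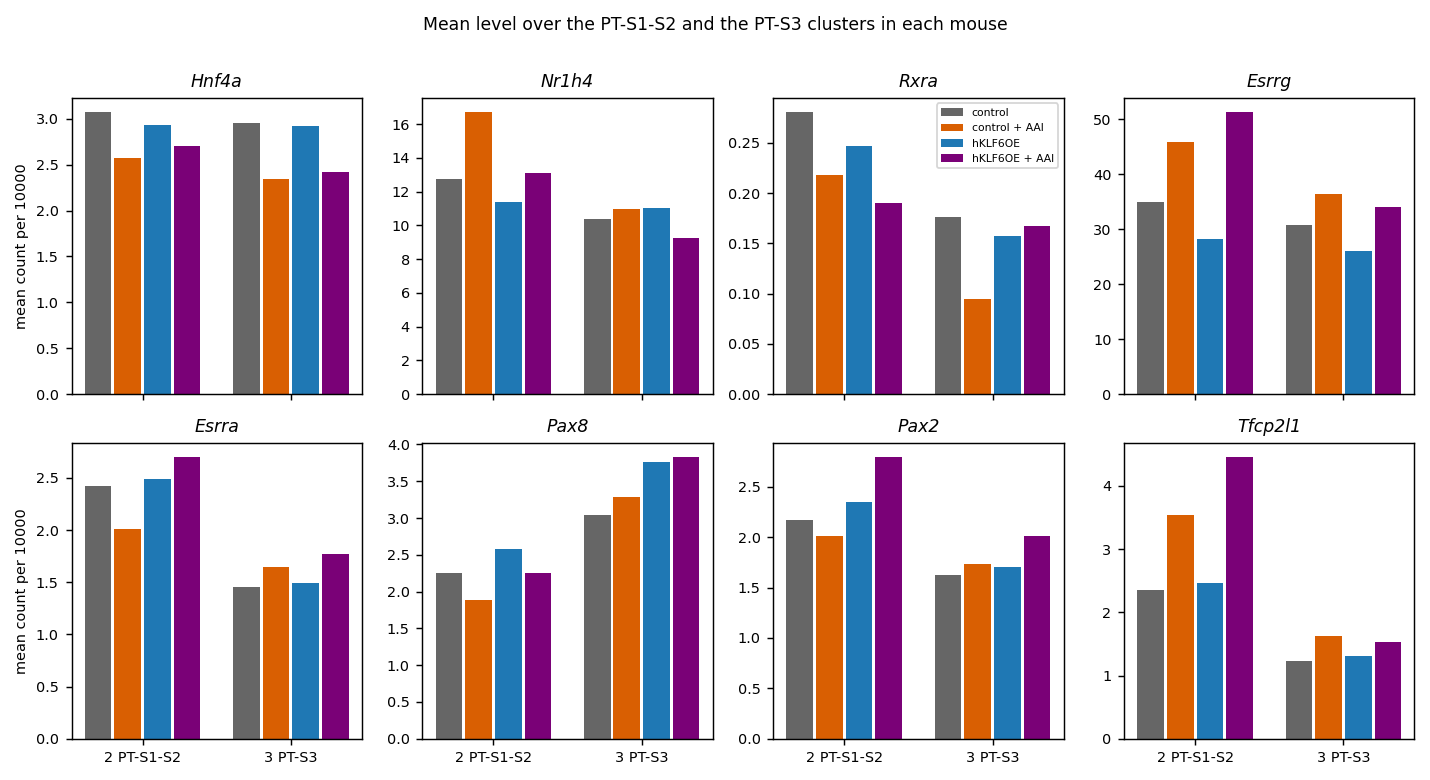
Mean count per 10000 over the PT-S1-S2 clusters (left groups) and the PT-S3 clusters (right groups); each bar is 1 mouse and the axes start at 0. Esrra and Tfcp2l1 are lower in PT-S3 in each of the 4 mice, Pax8 is higher, and the largest bar of Tfcp2l1, 4.46, belongs to the hKLF6OE_AAI mouse.

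In InjuredPT-A, the injured cluster with the most Klf6 (7.46 in control_AAI and 6.68 in hKLF6OE_AAI, against 0.406 and 0.327 in the normal PT clusters), 6 of the 7 factors that could be compared were lower than in the normal PT of the same AAI-treated mouse, and none was higher. Esrrg differed the most, followed by Nr1h4, Pax8, Pax2, Hnf4a and Tfcp2l1, and Esrra had 1 of 2 mice past the threshold. Over all 5008 genes compared, 27.0% were lower and 43.3% higher in both mice. The median difference of the 7 factors was -0.86 in control_AAI and -0.96 in hKLF6OE_AAI, where the medians of all genes were 0.19 and 0.15. With differences centred on those medians, 35.3% of genes were lower and 29.6% higher, and all 7 factors were lower. All these comparisons set InjuredPT-A against the mean of the 5 normal PT clusters.

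Esrrg was 3.17 in InjuredPT-A and 40.2 in the normal PT clusters of the control_AAI mouse, a difference of -3.31 on the log2 scale. In the hKLF6OE_AAI mouse it was 5.28 and 40.9, a difference of -2.74. They ranked 2 and 3 from the lowest among the 5008 genes compared. Esrrg is in the class of genes over 100 kb, of which 71.7% were lower and 6.74% higher in InjuredPT-A, against 23.2% and 32.3% of genes of 30 to 100 kb and 6.27% and 73.7% of shorter genes. The part of gene length in the Esrrg difference was not tested.

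Nr1h4 was 2.93 against 13.3 in control_AAI (-1.86) and 2.85 against 10.8 in hKLF6OE_AAI (-1.62). Pax8 was 0.971 against 2.73 (-0.92) and 0.753 against 3.20 (-1.26), and Pax2 was 0.572 against 1.84 (-0.86) and 0.712 against 2.33 (-0.96). For all 3 genes InjuredPT-A was below each of the 5 normal PT clusters of the same mouse. Hnf4a was 1.04 against 2.44 (-0.75) and 1.40 against 2.53 (-0.56), with Hnf4aos at 1.41 and 0.936 in InjuredPT-A. Each Hnf4a value of InjuredPT-A was also below the lowest normal PT cluster. Tfcp2l1 was 1.87 against 2.39 (-0.24) and 1.75 against 2.70 (-0.43), and it was above the mean of the 3 PT-S3 clusters alone by 0.13 and 0.12. Against the normal PT of the uninjured mouse of the same genotype Tfcp2l1 differed by 0.10 and -0.016, so its call was also lost with either of these references. Esrra, the short gene, was 1.46 against 1.79 (-0.18) and 1.48 against 2.14 (-0.34). The summed PT markers were 14.5 and 18.04 in InjuredPT-A of the AAI-treated mice, below the lowest normal PT column at 18.5, and their part in the differences was not tested.

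**Figure D3:**
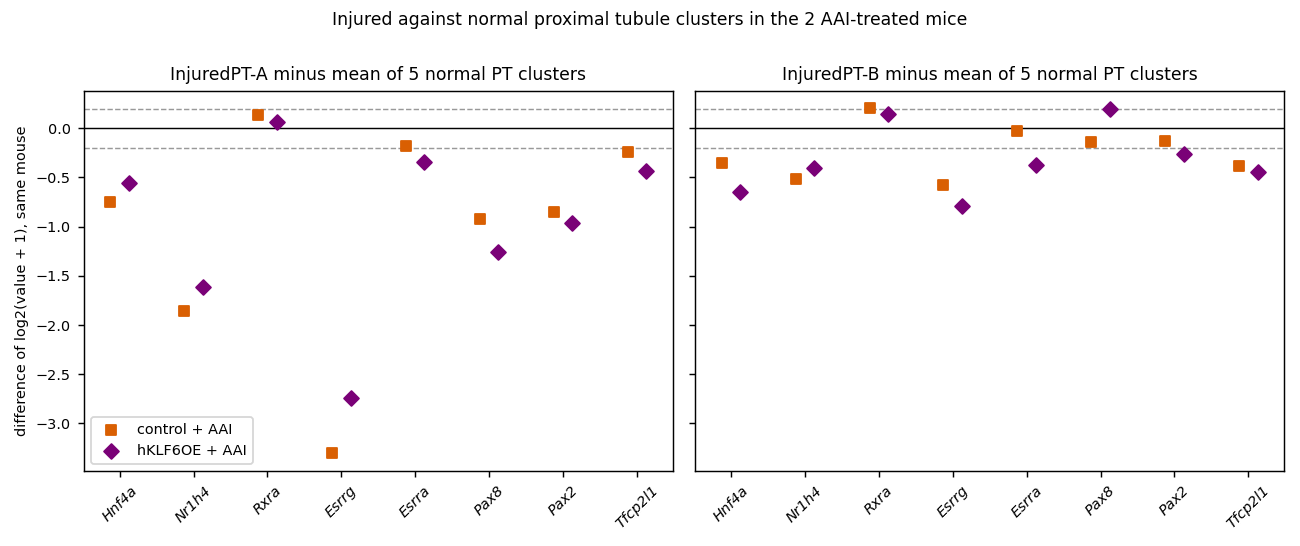
Difference of log2(value + 1) between an injured cluster and the mean of the 5 normal PT clusters of the same mouse (vertical axis), for the 8 factors; each point is 1 AAI-treated mouse and the dashed lines mark 0.2 and -0.2. Esrrg lies at -3.31 and -2.74 in InjuredPT-A and at -0.58 and -0.79 in InjuredPT-B.

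Other regulators of the tubule differed in both directions in InjuredPT-A. Of 40 other tubule transcription factors, 13 passed the minimum, 6 were lower and 2 higher. Glis3 was lowest, with 3.74 and 3.51 against 18.7 and 19.1 (-2.05 and -2.15), and Hoxb7 was highest (0.50 and 0.56). Of the RXR partners and paralogs, Ppara, Vdr and Thrb were lower and Rxrb higher among the 4 that passed. Thrb, a thyroid hormone receptor, was lowest with 1.49 and 2.04 against 10.9 and 11.25 (-2.26 and -2.01). Of 13 coregulators 7 were lower, with Ncoa2 at -1.08 and -1.01, and 2 higher, with Sirt1 at 0.63 and 0.51. These counts stand beside 27.0% lower and 43.3% higher over all genes. Rxrb (0.163 and 0.158 in the normal PT of control_AAI and hKLF6OE_AAI), Hoxb7 (0.098 and 0.091) and Sirt1 (0.417 and 0.391) passed only through InjuredPT-A. They could therefore not have been called lower.

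Known targets of the factors also differed in both directions. Of 8 HNF4A targets that passed, 6 were lower, with Cubn, the cubilin receptor of protein uptake, at -2.29 and -1.82, and 1 was higher, the organic anion transporter Slc22a6 at 0.73 and 1.60. Both FXR targets that passed were lower: Abcc2, an apical efflux pump, at -1.38 and -1.17 and Slc10a2, the bile acid transporter, at -0.65 and -0.46. Of 18 ERR targets of mitochondrial metabolism 10 were higher and 2 lower, with Pdk4, a kinase that restrains glucose oxidation, at 1.22 and 1.20 and Ogdh at -0.48 and -0.49. That list also holds Vegfa, a growth factor gene, which was called in neither direction here. Of 13 genes associated with PAX2 and PAX8, 0 passed, and of 4 collecting duct patterning genes 2 were higher, with Hes1 at 0.55 and 0.63, and 0 lower. Pdk4 (0.140 and 0.066 in the normal PT of control_AAI and hKLF6OE_AAI), Idh3b (0.441 and 0.364) and Hes1 (0.461 and 0.385) passed only through InjuredPT-A. These 3 genes, all among those called higher, could not have been called lower. The ERR targets called higher, 10 of 18, stand beside the 43.3% of all genes and the HNF4A targets called lower, 6 of 8, beside the 27.0%. By length, 73.7% of genes under 30 kb were higher and 71.7% of those over 100 kb were lower. The part of gene length in these target counts was not tested.

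In InjuredPT-B, the second injured cluster, the same contrast gave 4 of 7 factors lower and none higher, beside 13.1% of 4148 genes lower and 23.4% higher, or 18.1% and 9.88% once centred on the median of all genes, where 5 factors were lower. The 4 were Esrrg, Hnf4a, Nr1h4 and Tfcp2l1. Esrrg was 26.7 against 40.2 in control_AAI (-0.58) and 23.2 against 40.9 in hKLF6OE_AAI (-0.79). Nr1h4 was 8.98 against 13.3 (-0.51) and 7.89 against 10.8 (-0.41), and Hnf4a was 1.69 against 2.44 (-0.35) and 1.26 against 2.53 (-0.65). Tfcp2l1 was 1.60 against 2.39 (-0.38) and 1.73 against 2.70 (-0.44), but it differed by -0.0075 and 0.11 from the 3 PT-S3 clusters alone and by -0.038 and -0.026 from the normal PT of the uninjured mice, so its call was lost with either reference. The PAX genes were called in neither direction: Pax8 was 2.37 against 2.73 (-0.14) in control_AAI and 3.82 against 3.20 (0.20) in hKLF6OE_AAI, and Pax2 differed by -0.13 and -0.26. Pax8 was thus 2.37 and 3.82 in InjuredPT-B where InjuredPT-A of the same mice had 0.971 and 0.753. Esrra differed by -0.03 and -0.37. Both injured clusters were set against the same normal clusters of the same mice, so the comparisons share their reference.

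Among the lists, Ppara, Vdr and Thrb were again lower in InjuredPT-B (3 of 3), with Thrb at -0.98 and -1.20, and 4 of 8 HNF4A targets were lower, with Cubn at -0.83 and -1.30. Of 13 coregulators 4 were higher and 0 lower. Abcc2 was higher (0.47 and 0.20) and Slc10a2 lower (-0.39 and -0.33). Of 15 ERR targets 1 was higher, Pdk4 at 0.74 and 0.54, and 2 lower, Vegfa and Acadm, the latter at -0.25 and -0.25. Pdk4 again passed only through the injured cluster and could not have been called lower. The other tubule factors counted 1 higher and 2 lower of 11, with Nfib at -0.66 and -0.62, and the collecting duct list counted 0 of 4 in either direction. These counts stand beside the 13.1% lower and 23.4% higher over all genes.

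AAI was compared with no AAI in the normal PT clusters within each genotype, that is, in PT nuclei that clustering left outside the injured clusters. For these clusters the study reports raised p53 and cell cycle pathways and lowered metabolic ones after AAI, and fewer PT-S3 cells. Esrrg and Tfcp2l1 were higher after AAI in both genotypes. Nr1h4 was called higher and Hnf4a lower in the control genotype and neither was called in hKLF6OE, but the difference between genotypes was not tested. In the control genotype 3 of 7 factors were higher and 1 lower, beside 11.7% and 11.25% of 4052 genes. In hKLF6OE 2 of 7 were higher and 0 lower, beside 19.5% and 15.4% of 4133 genes, or 14.4% and 19.2% once centred. The share of genes at 0 also moved with AAI in these clusters, from at most 23.1% to at most 31.3%, and its part was not tested. In bulk means of this kind, fewer expressing nuclei and less RNA per nucleus cannot be told apart.

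Over the 5 normal PT clusters, Esrrg was 32.4 without and 40.2 with AAI in control mice (0.30) and 26.9 and 40.9 in hKLF6OE mice (0.58). Tfcp2l1 was 1.68 and 2.39 in control (0.34) and 1.78 and 2.70 in hKLF6OE (0.42). Both AAI-treated mice were above both untreated mice for these 2 genes. Hnf4a was 3.00 and 2.44 in control (-0.22) and 2.92 and 2.53 in hKLF6OE (-0.15), again without overlap between treated and untreated mice. Nr1h4 was 11.32 and 13.3 in control (0.21) and 11.18 and 10.8 in hKLF6OE (-0.05), with the treated mice on either side of the untreated ones. Pax8 was 2.72 and 2.73 in control and 3.28 and 3.20 in hKLF6OE, Pax2 was 1.84 and 1.84 and 1.96 and 2.33, and Esrra was 1.84 and 1.79 and 1.89 and 2.14.

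The single clusters differed in direction. Over 40 pairs of a factor and a normal PT cluster, 35 passed the minimum, 8 were higher and 4 lower with AAI in both genotypes, beside 8.92% and 7.44% of all 19205 pairs of a gene and a cluster. Esrrg in PT-S1-S2-2 was 36.7 and 30.1 without AAI in the control and hKLF6OE mice and 50.6 and 57.2 with AAI (0.45 and 0.91). In PT-S3-1 it was 35.5 and 29.1 without and 55.5 and 54.4 with AAI (0.63 and 0.88), and in PT-S1-S2-1 33.0 and 26.5 without and 41.1 and 45.4 with AAI (0.31 and 0.75). In PT-S3-3 the order turned: Esrrg was 30.6 and 25.2 without and 24.2 and 17.9 with AAI (-0.33 and -0.47), and in PT-S3-2 it was 26.2 and 23.9 without and 29.6 and 29.7 with AAI (0.17 and 0.30).

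Nr1h4 had the same turn. It was 11.39 and 9.45 without and 14.5 and 11.9 with AAI in PT-S1-S2-1 (0.33 and 0.31), and 11.6 and 12.6 without and 8.74 and 6.70 with AAI in PT-S3-3 (-0.37 and -0.82). Hnf4a was also lower in PT-S3-3, with 2.84 and 3.04 without and 2.31 and 2.03 with AAI (-0.22 and -0.41), and in PT-S1-S2-1 (-0.21 and -0.21). PT-S3-3 was thus the normal PT cluster in which Esrrg, Nr1h4 and Hnf4a were all lower after AAI in both genotypes. Its share of genes at 0 was 21.5% and 22.2% without and 31.3% and 30.4% with AAI. Its summed PT markers were 31.9 and 25.2 without and 41.5 and 45.8 with AAI. In PT-S3-1, where Esrrg was higher, the share at 0 was 15.1% and 15.7% without and 24.3% and 27.2% with AAI. The part of these shifts was not tested. Pax8 in PT-S3-3 was higher, at 2.69 and 3.06 without and 3.42 and 3.91 with AAI (0.26 and 0.27). Tfcp2l1 was higher in PT-S1-S2-1 (0.24 and 0.51), PT-S1-S2-2 (0.65 and 0.81) and PT-S3-1 (0.56 and 0.51), and near 1 in every mouse in PT-S3-2. The differences between clusters were not tested.

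**Figure D4:**
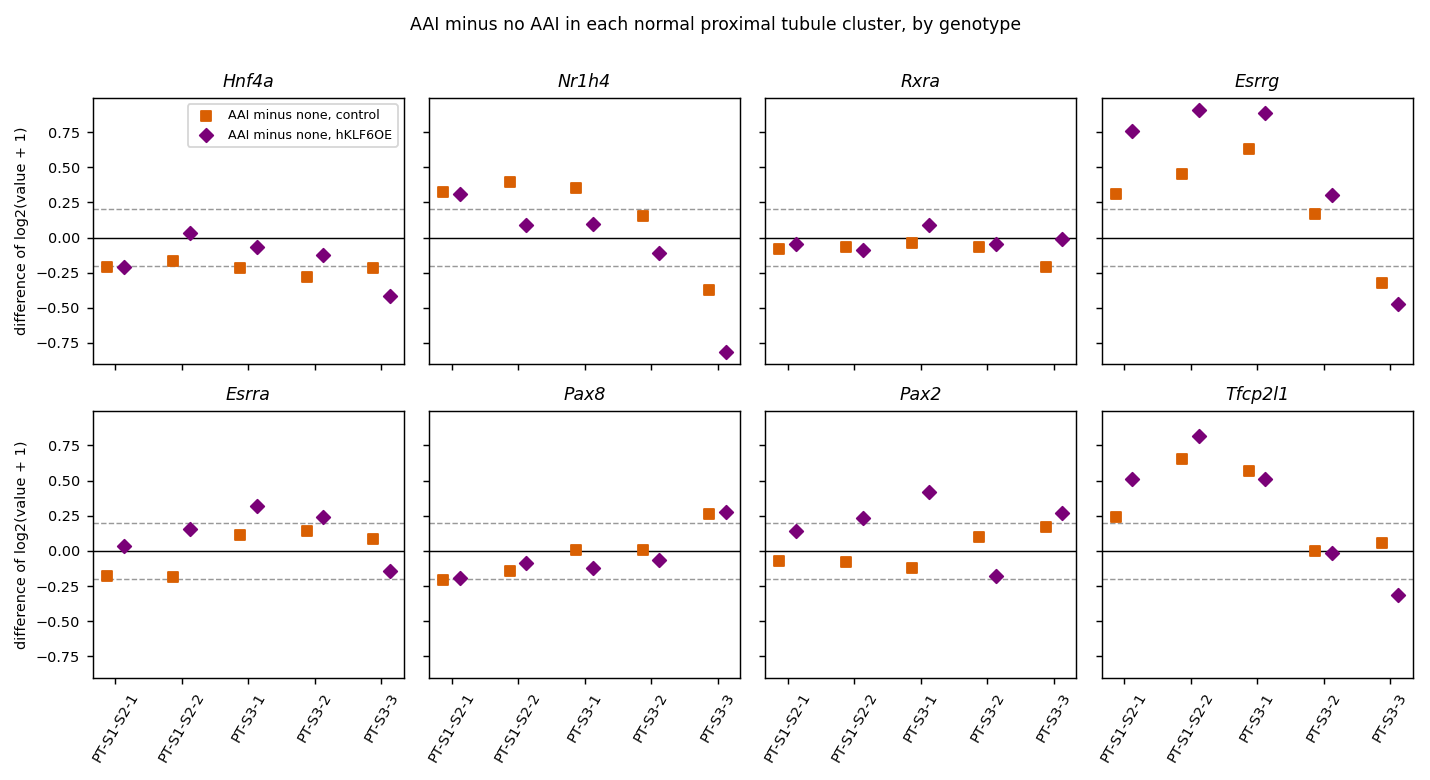
Difference of log2(value + 1) between the AAI-treated and the untreated mouse of a genotype (vertical axis) in each normal PT cluster; squares are the control and diamonds the hKLF6OE genotype, and the dashed lines mark 0.2 and -0.2. Esrrg and Nr1h4 lie above 0 in PT-S1-S2-1 and below 0 in PT-S3-3, at -0.33 and -0.47 for Esrrg and -0.37 and -0.82 for Nr1h4.

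Around the factors, Maf had the lowest difference after AAI among the other tubule factors reported here, -0.26 in control and -0.17 in hKLF6OE. Ppara, the fatty acid receptor that pairs with RXRA, was higher, from 5.10 to 10.7 (0.94) and from 4.92 to 8.02 (0.61). Cubn was higher by 0.86 and 0.50, while G6pc was lowest among HNF4A targets in control (-1.20) and Ttr in hKLF6OE (-1.46). Ttr was 1.76 in the untreated hKLF6OE mouse and 0.0035 in hKLF6OE_AAI, beside 0.360 in control and 0.332 in control_AAI. It thus passed only through the untreated hKLF6OE mouse and could not have been called higher with AAI. Abcc2 was higher, from 10.1 to 14.9 (0.52) and from 7.67 to 16.5 (1.02). ERR targets counted 0 higher and 1 lower of 15 in control and 0 higher and 8 lower of 17 in hKLF6OE, with Atp5b at -0.58. The 1 lower in control was the growth factor gene Vegfa. Over all genes 11.25% were lower in control and 15.4% in hKLF6OE, or 19.2% centred. The hKLF6OE count rests on the same untreated mouse as the comparison of hKLF6OE with control without AAI, where 7 of 17 ERR targets were higher.

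hKLF6OE was compared with control in the normal PT clusters, without AAI and after AAI. Few factors differed. Without AAI Pax8 was higher and Esrrg lower, 1 of 7 in each direction, beside 7.84% and 9.33% of 4041 genes, or 9.33% and 7.42% once centred. After AAI Pax2 was higher and Nr1h4 lower, again 1 of 7 each, beside 6.32% and 7.74% of 3942 genes.

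Pax8 was 3.28 in hKLF6OE against 2.72 in control without AAI (0.20) and 3.20 against 2.73 after AAI (0.17), so both hKLF6OE mice were above both control mice. Esrrg was 26.9 against 32.4 without AAI (-0.26) and 40.9 against 40.2 after AAI (0.02). Pax2 was 1.96 against 1.84 (0.06) and, after AAI, 2.33 against 1.84 (0.23). Nr1h4 was 11.18 against 11.32 (-0.02) and, after AAI, 10.8 against 13.3 (-0.27). Hnf4a differed by -0.03 and 0.04, Esrra by 0.03 and 0.17, and Tfcp2l1 by 0.05 and 0.13.

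Over all 23 clusters, the 4 contrasts were read in each cluster, for 184 pairs of a factor and a cluster. AAI against none in control gave 30 of 156 passed pairs higher and 55 lower, or 19.2% and 35.3%, beside 27.6% and 25.2% of all genes and clusters. Hnf4a was lower in 12 of the 20 clusters where it passed and higher in 1, and Nr1h4 was lower in 10 of 23 and higher in 5. In hKLF6OE, AAI gave 46 of 158 higher and 43 lower, beside 31.6% and 26.2%. Hnf4a was again lower in most called clusters, 13 of 22 against 2 higher, whereas Esrrg was higher in 14 of 23 and lower in 3, the 3 being PT-S3-3, InjuredPT-A and InjuredPT-B. The injured clusters are thin without AAI. InjuredPT-A and InjuredPT-B had 40.8% and 55.7% of genes at 0 in the hKLF6OE mouse and 62.6% and 51.3% in the control mouse.

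hKLF6OE against control without AAI gave 36 of 158 pairs higher and 44 lower, beside 22.4% and 27.4%. Esrrg was lower in 13 of 23 clusters and higher in 0, and Pax8 was higher in 10 of 21 and lower in 0. Esrrg in LH-DL, for example, was 8.57 in hKLF6OE and 13.1 in control (-0.56), and Pax8 in IC-A was 2.18 and 1.22 (0.52). After AAI the contrast gave 43 of 151 higher and 29 lower, beside 20.8% and 23.8%, with Esrrg lower in 1 of 23 and higher in 6, and Pax8 higher in 10 of 21 and lower in 2. Clusters of 1 mouse come from 1 library, so these counts are not independent of each other. Columns with few transcripts, such as macrophages of the control_AAI mouse with 63.4% of genes at 0, give the least certain values.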

How the data were processed

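Nuclei of 4 mice were sequenced and, per the labels and methods, prepared as 1 batch. Reads were counted by the authors against pre-mRNA models of mm10 in Cell Ranger; they filtered and clustered nuclei with Seurat and deposited a signal table: the mean of counts scaled to 10000 for each of 23 clusters and 4 mice, on a linear scale. The function that made the table and any removal of doublets are not given in the sources used here. Of 19632 rows, 23 with date-like names were left out. Cluster names follow the sheet order of the study's marker table and were checked on markers.

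With Python 3.11.15, pandas 2.3.3 and numpy 2.4.6, differences of log2(value + 1) were taken where the larger value reached 0.5, and called from 0.2. This scale understates differences of low genes. With 1 mouse per condition no test was run. The caller was tested on data with known answers. All 8 factors are named in every result, with the 3 genes nearest in pattern to each and, from 8 gene lists (other tubule transcription factors, RXR partners, coregulators, HNF4A, FXR and ERR targets, PAX-associated genes, collecting duct patterning), counts and the gene furthest in each direction. Other genes of these lists, and PT markers, Klf6 and Hnf4aos, were named after their values were seen; 2 genes were left out of the lists and are not reported here. The factors and lists were chosen with earlier results of these data known. Alternatives were other pseudocounts, minimums, thresholds, centring and reference clusters.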

Additional observations from a re-analysis of the deposited data

Results flagged for a closer look

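Some differences between the AAI-treated and the untreated mouse of a genotype went opposite ways in 2 clusters, in both genotypes. Esrrg was higher with AAI by 0.31 (control) and 0.75 (hKLF6OE) in PT-S1-S2-1, by 0.45 and 0.91 in PT-S1-S2-2 and by 0.63 and 0.88 in PT-S3-1, on the scale of log2(value + 1). In PT-S3-3 the differences of Esrrg were -0.33 and -0.47. Nr1h4 was higher by 0.33 and 0.31 in PT-S1-S2-1, and its differences in PT-S3-3 were -0.37 and -0.82. The share of genes at 0 was also higher with AAI in PT-S3-1 and PT-S3-3 of both genotypes, and its part was not tested. Between the genotypes, Esrra in InjuredPT-B differed by 0.45 in control and -0.32 in hKLF6OE, where the untreated columns have 51.3% and 55.7% of genes at 0. Each value rests on 1 mouse against 1, and none of these differences between clusters or genotypes was tested.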

How the results depend on the processing

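Depth and number of nuclei are unknown and each condition is 1 mouse, so how far a difference would move in another mouse is not known. Injured clusters and PT segments were compared within the same mouse. Between mice no pairing was possible, since the labels pair no samples, and no test was run.

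Tfcp2l1 turned direction. In InjuredPT-A it was above the 3 PT-S3 clusters by 0.13 in control_AAI and 0.12 in hKLF6OE_AAI, and above the normal PT of the uninjured control mouse by 0.10. In InjuredPT-B of hKLF6OE_AAI it was above the PT-S3 clusters by 0.11. Tfcp2l1 is lower in PT-S3 than in PT-S1-S2 to begin with.

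At a threshold of 0.5, InjuredPT-A had 5 factors lower and InjuredPT-B 1. AAI in normal PT had 0 higher and 0 lower in control and 1 higher in hKLF6OE, hKLF6OE against control had 0 in each direction with and without AAI, and PT-S3 against PT-S1-S2 had 0 higher and 1 lower. At a threshold of 1, InjuredPT-A had 2 lower, and every other comparison had 0 higher and 0 lower. With the 3 PT-S3 clusters alone, AAI in hKLF6OE gave 1 higher and 1 lower, and hKLF6OE against control after AAI gave 0 higher. With the 2 PT-S1-S2 clusters alone, AAI in control gave 0 lower, and hKLF6OE against control gave 0 higher without AAI and 3 higher after it. A pseudocount of 0.1 also gave 3 higher after AAI. The causes were not tested. Of 120 counts, 92 stayed within 1.5 times, and 258 of 288 values of single factors kept their direction and their side of 0.2. Each mouse taken alone, added after the data were seen, moved no count by over 1.5 times. A factor called in both mice is also called in each, so these counts could only stay or rise. In InjuredPT-B, 6 factors were lower in the hKLF6OE_AAI mouse alone against 4 in both mice.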

Other observations

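Among genes tied to these factors, several stood apart between the genotypes in the normal PT clusters. Without AAI, Pck1, the rate-limiting enzyme of gluconeogenesis and an HNF4A target, was higher in the hKLF6OE than in the control mouse by 1.10 on the log2 scale and G6pc was lower (-0.91). Over the HNF4A targets, 2 of 10 were higher and 2 lower. Ttr, the other higher one, passed only through the hKLF6OE mouse, with 1.76 against 0.360 in control. Both FXR targets that passed were lower, Abcc2 by -0.36 and Slc10a2 by -0.48. Of 17 ERR targets 7 were higher, with Uqcrfs1, a subunit of respiratory complex III, at 0.50, and 1 lower, the growth factor gene Vegfa. After AAI, Pck1 was again higher (0.93) and Slc22a8 was lowest of the HNF4A targets (-0.49). ERR targets counted 1 higher, Vegfa, and 1 lower, Atp5b, of 15. The background shares are those given for the same comparisons.

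Between PT segments of the uninjured mice, Maf, a basic leucine zipper factor, was lower in PT-S3 than in PT-S1-S2 (-0.75 in control and -0.82 in hKLF6OE), and Thrb was higher (0.92 and 0.79). Rarb was lower (-0.79 and -0.55). The bile acid transporter Slc10a2 was higher (1.23 and 0.74), and 4 of 8 HNF4A targets were lower, beside 14.7% of all genes, with G6pc at -0.72 and -0.76, where Hnf4a itself differed by -0.04 and -0.01. Each value is 1 mouse, and no difference was tested.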
